A study of Arabidopsis thaliana with 12 samples.

Results

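Total mRNA of Arabidopsis seedlings carrying an eif4e mutation was compared with total mRNA of wild-type seedlings. The comparison was chosen by library title and took 6 of the series' 12 libraries, 3 labelled eif4e and 3 labelled wild type; the other 6 libraries hold ribosome-bound mRNA. All seedlings had the Columbia background, were 9 days old, grew at 22 °C in days of 16 h light with nights of 8 h, and were frozen whole at zeitgeber time 16 h, when the light period ended. The labels name neither the eif4e allele nor the origin of the replicates, so p-values speak of the spread among these libraries alone, and that spread may be technical. The series title places the mutation beside flowering and circadian rhythm.

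eIF4E is the protein that recognises the cap of an mRNA and, with the scaffold eIF4G and the helicase eIF4A, brings the small ribosomal subunit to the message. Plants also have an isoform, eIFiso4E, and a further cap-binding protein, NCBP, and loss of the main eIF4E gene is tolerated in Arabidopsis. Because initiation is regulated by light, energy and nutrients, seedlings are often examined for changes in photosynthetic, ribosomal and nutrient-related transcripts as well as for the cap-binding genes themselves.

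EIF4E1 (AT4G18040), the gene the mutant is named for, was lower in eif4e, and one of its libraries differed from the other two. Its level was 8.28, 24.2 and 8.29 FPKM (fragments per kilobase of gene, scaled to the library's read total) in eif4e libraries 1, 2 and 3, against 45.8, 44.0 and 44.2 FPKM in wild type, from 157, 403 and 161 counts in eif4e and 961, 919 and 963 counts in wild type. The FPKM groups did not overlap, as on the low side for 34.7% of all genes tested. Library 2 of eif4e kept 54.2% of the wild-type mean, while libraries 1 and 3 kept 18.5% and 18.6%. The mean was 13.6 ± 9.18 FPKM in eif4e and 44.7 ± 0.986 FPKM in wild type (SD, n = 3 each), a log2 change of -1.61 ± 0.40 (SE; edgeR quasi-likelihood test, Benjamini-Hochberg adjusted p = 0.0386). The exact two-sided permutation test of the means gave p = 0.1, the smallest that 3 libraries against 3 allow. Without eif4e library 2 the change was -2.29 (adjusted p = 3.3e-04), and without any other single library it was -1.62 to -1.34 with adjusted p between 0.0723 and 0.117. The position of the mutation relative to the counted reads is not given, so the level reports transcript and not protein.

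**Figure D1:**
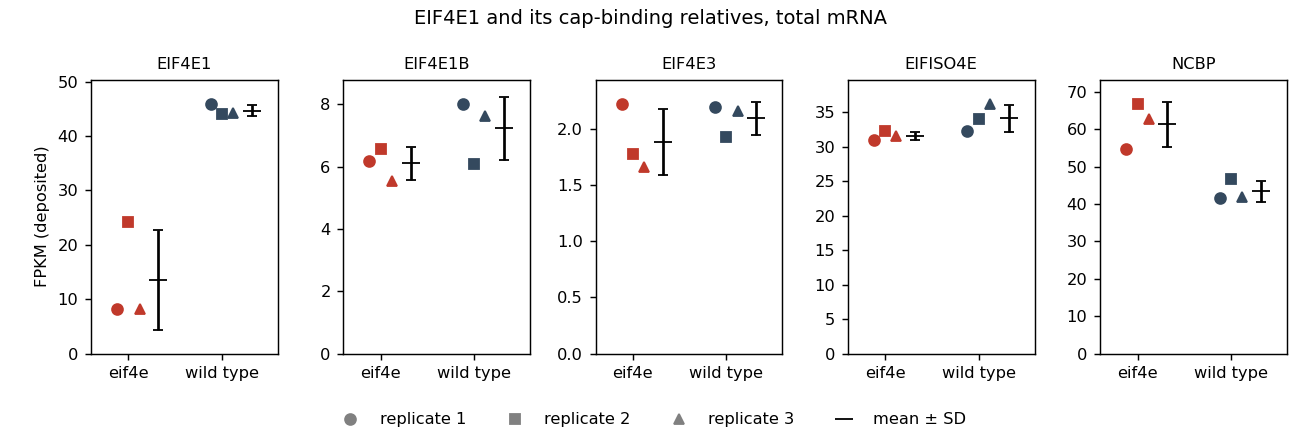
Deposited FPKM of EIF4E1 and its cap-binding relatives in each total mRNA library (vertical axes, each from 0), eif4e on the left and wild type on the right; symbols give the replicate number and black bars the mean ± SD over 3 libraries. EIF4E1 lies at 8.28, 24.2 and 8.29 FPKM in eif4e, below all wild-type libraries, and NCBP lies above them.

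In the list of 17 genes for the cap-binding complex and poly(A)-binding proteins, 4 rose and 1, EIF4E1, fell. With the replicate number as a block 5 rose and 2 fell, beside 14.8% of all genes higher and 14.5% lower. NCBP (AT5G18110) rose: it stood at 54.6, 66.6 and 62.6 FPKM in eif4e, all above the 41.5, 46.7 and 41.9 FPKM in wild type, a log2 change of 0.62 ± 0.09 (SE; edgeR adjusted p = 0.00856; 0.0523 without wild-type library 1). EIFISO4E held 31.0, 32.2 and 31.5 FPKM in eif4e and 32.2, 34.0 and 36.1 FPKM in wild type, with a log2 change of 0.01 (adjusted p = 0.931). EIF4E1B and EIF4E3, close paralogues of EIF4E1, had log2 changes of -0.12 (adjusted p = 0.536) and -0.03 (adjusted p = 0.916). Reads shared between these paralogues could be split by the counting, so their separate values are uncertain. Poly(A)-binding proteins bring the ends of an mRNA together, and 2 of their genes rose, PAB4 to 85.3, 84.3 and 90.0 FPKM in eif4e, against 55.2, 55.6 and 58.8 FPKM in wild type, and PAB8 to 45.4, 47.5 and 50.1 FPKM in eif4e, against 36.9, 35.8 and 37.3 FPKM in wild type. Their log2 changes were 0.74 ± 0.05 and 0.50 ± 0.05 (edgeR adjusted p = 0.00188 and 0.00387), and both calls stood without each single library.

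Across the genome the change was broad and mostly small. Of 19262 genes tested, 1844 were higher in eif4e (9.57%) and 1270 lower (6.59%) at an adjusted p below 0.05, or 16.2% together. Changes of at least 2-fold numbered 68 higher (0.353%) and 120 lower (0.623%), while 1198 of the higher and 712 of the lower calls changed by less than 0.5 on the log2 scale. With the replicate number as a block, which takes same-numbered libraries as pairs, the calls came to 2855 higher (14.8%) and 2801 lower (14.5%). These are the shares to set beside the counts of list members under the block. The share of higher among all calls, 59.2%, depended on scaling: it was 25.5% when libraries were scaled by their total alone and 70.9% after a correction for gene length. Scaling by total moved the median change of all genes to -0.115, against -0.0122 with TMM scaling (trimmed mean of M values). Abundant genes took more of the reads in eif4e: the 10 highest held 5.519 to 6.177% of counts in eif4e libraries and 4.326 to 4.729% in wild-type libraries. The deposited FPKM values are scaled to the read total and not by TMM. FPKM groups that did not overlap were commoner on the low side (34.7% of genes) than on the high side (10.4%). The part of the abundant genes in that difference was not tested. Changes below are TMM-scaled unless named otherwise.

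Abundant, short transcripts made up many of the higher calls. With genes split into 5 equal bins by mean FPKM, 899 rose and 152 fell in the highest bin, and 60 rose and 277 fell in the lowest. Genes called higher had a median level of 33.8 FPKM and a median length of 1337 bases, those called lower 10.6 FPKM and 1807 bases, and all tested genes 12.3 FPKM and 1527 bases. With 5 bins by length, 465 rose and 156 fell among the shortest genes, whereas 206 rose and 418 fell among the longest. After the length correction the median change was 0.03 in the shortest and 0.01 in the longest bin.

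**Figure D2:**
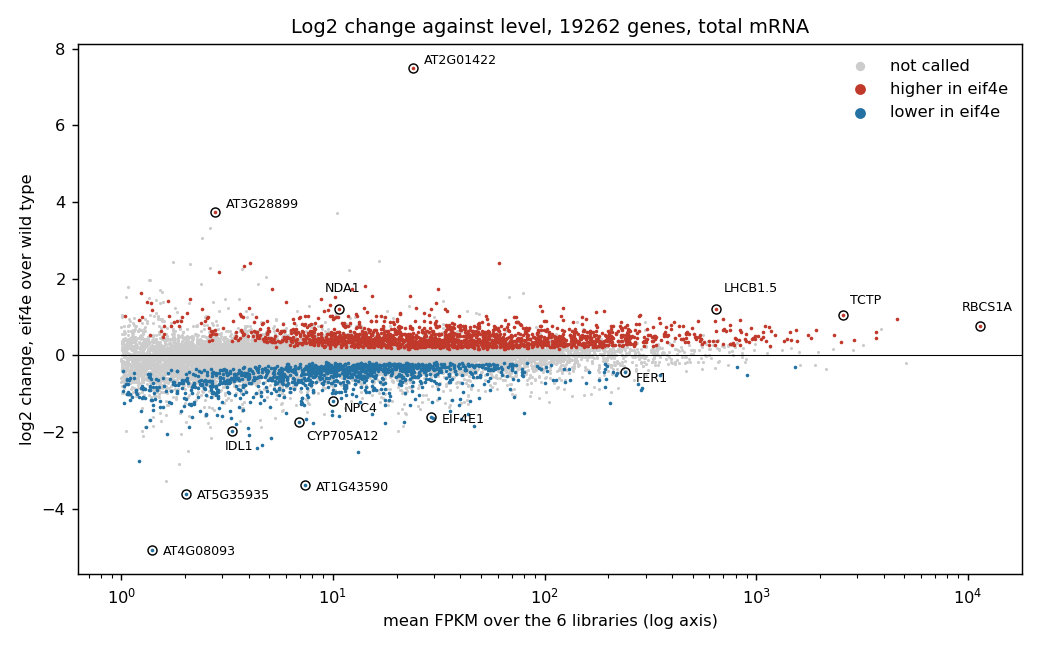
Log2 change of eif4e over wild type (vertical axis) against mean FPKM over the 6 libraries (horizontal, log axis) for 19262 tested genes; red points were called higher and blue points lower. Calls at high levels are mostly red, and a few genes without a symbol, led by AT2G01422 at 7.49, lie far outside the rest.

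The libraries held 17058704 to 19973299 counts in eif4e and 21707431 to 22539336 in wild type, and a tested gene had a median of 334 to 475 counts in a library. Replicates differed by more than sampling noise. The number-2 libraries stood apart from the others of their genotype: the second principal component, with 32.7% of the variance, placed eif4e 2 at -39.3 and wild type 2 at -15.9, with the other libraries between 6.8 and 22.9. The first component, with 46.8%, separated the genotypes. Values without eif4e library 2 are given where a result rests on it; leaving it out for all genes gave 2063 higher and 1002 lower. Leaving out wild-type library 1 had the largest effect on calls, with 457 higher and 157 lower. Calls that stood without each single library numbered 449 higher (2.33%) and 141 lower (0.732%). As whole seedlings were sampled, fewer cells of a type and less RNA per cell cannot be told apart. Flower and pollen markers were nearly absent, as 1 of 7 passed the level filter and they summed to 2.92 to 3.15 FPKM in eif4e and 3.44 to 4.67 FPKM in wild type.

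Genes of the photosynthetic apparatus rose together. Among the light-harvesting proteins, which bind chlorophyll around the photosystems, 16 of 18 tested members rose, beside 9.57% of all genes, with a median log2 change of 0.70 against -0.0122 for all genes. The summed level of the group was 12400, 13100 and 16100 FPKM in eif4e libraries 1, 2 and 3, against 9050, 7740 and 9870 FPKM in wild type. LHCB1.5 (AT2G34420) had 694, 905 and 1050 FPKM in eif4e and 427, 356 and 450 FPKM in wild type (log2 change 1.22 ± 0.16, edgeR adjusted p = 0.00584). LHCB1.1 changed by the same 1.22, from a lower level of 35.0 to 47.6 FPKM in eif4e against 15.4 to 20.2 FPKM in wild type. Of the 16 calls only 2, those of LHCB1.5 and LHCB1.1, stood without each single library. LHCB1 genes are near-identical and their reads may have been split between copies, so the members are uncertain singly; LHCB2.1, LHCB3 and LHCB5 also rose, by 0.81, 0.77 and 0.77, but each call was lost without wild-type library 1, and over single libraries their adjusted p reached 0.0717, 0.0503 and 0.063.

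The photosystem and electron transport list, the Calvin cycle and photorespiration behaved alike. In the photosystems and electron transport, 23 of 31 members rose, and 29 under the replicate block; the leading member was PSAE-1, a subunit of photosystem I, with 858, 809 and 995 FPKM in eif4e and 628, 539 and 655 FPKM in wild type (adjusted p = 0.00954; 0.0523 without wild-type library 1). In the Calvin cycle 13 of 19 members rose, and 19 under the block, led by the Rubisco small subunit gene RBCS1A, the most abundant transcript called. RBCS1A reached 14900, 12500 and 14300 FPKM in eif4e, against 9070, 8170 and 9130 FPKM in wild type, a log2 change of 0.78 ± 0.10 (edgeR adjusted p = 0.00646; 0.0503 without wild-type library 1). In photorespiration, which recovers carbon after Rubisco's oxygenation, 7 of 10 rose, and GGT1, an aminotransferase of the peroxisome, had 1450, 1270 and 1460 FPKM in eif4e and 904, 889 and 954 FPKM in wild type. Chlorophyll synthesis had 10 of 15 members higher, with CRD1, a subunit of the cyclase that closes the chlorophyll ring, at 516, 479 and 588 FPKM in eif4e and 346, 300 and 361 FPKM in wild type (log2 change 0.77 ± 0.10, adjusted p = 0.00594). In each of the genes given by library here every eif4e library lay above every wild-type library, as for 10.4% of all genes tested. Few calls stood without each single library: 1 for the photosystems, 2 for the Calvin cycle, 1 for photorespiration and 2 for chlorophyll synthesis. With scaling by total the counts of higher calls were smaller: 14 for light harvesting, 11 for the photosystems, 9 for the Calvin cycle, 3 for photorespiration and 5 for chlorophyll synthesis, and 0 members were called lower.

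Most of the listed ribosomal protein genes rose, for the plastid and for the cytosol. Of 27 nuclear genes for plastid ribosomal proteins, 19 rose, and all 27 under the block, with a median of 0.38; RPL12-C held 288, 275 and 326 FPKM in eif4e and 216, 189 and 221 FPKM in wild type. Of 30 listed cytosolic ribosomal protein genes, which are not the whole family, 21 rose and 1 fell, with a median of 0.35. Of the higher calls, 5 plastid and 6 cytosolic ones stood without each single library. With scaling by total, 12 plastid and 16 cytosolic genes were called higher. RPS15A (AT1G07770) had 332, 375 and 388 FPKM in eif4e, against 198, 185 and 203 FPKM in wild type (log2 change 1.02 ± 0.07, edgeR adjusted p = 0.00181), and RPS18C rose by 0.77. The member that fell was RPL3B, at 12.4, 12.8 and 12.6 FPKM in eif4e and 18.2, 17.0 and 20.3 FPKM in wild type, where the adjusted p of 0.0149 became 0.0662 at most when a library was left out. RPL18, an abundant gene outside that list, was also called lower, with 1260, 1400 and 1270 FPKM in eif4e and 1750, 1730 and 1740 FPKM in wild type (log2 change -0.29 ± 0.07, adjusted p = 0.0331, at most 0.127 without 1 library). Of 10 ribosome biogenesis genes 2 rose, beside 9.57% of all genes. Proteasome genes had 2 of 27 higher, and 4 under the block, beside 14.8% of all genes. Their median was -0.00, and -0.10 with scaling by total.

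**Figure D3:**
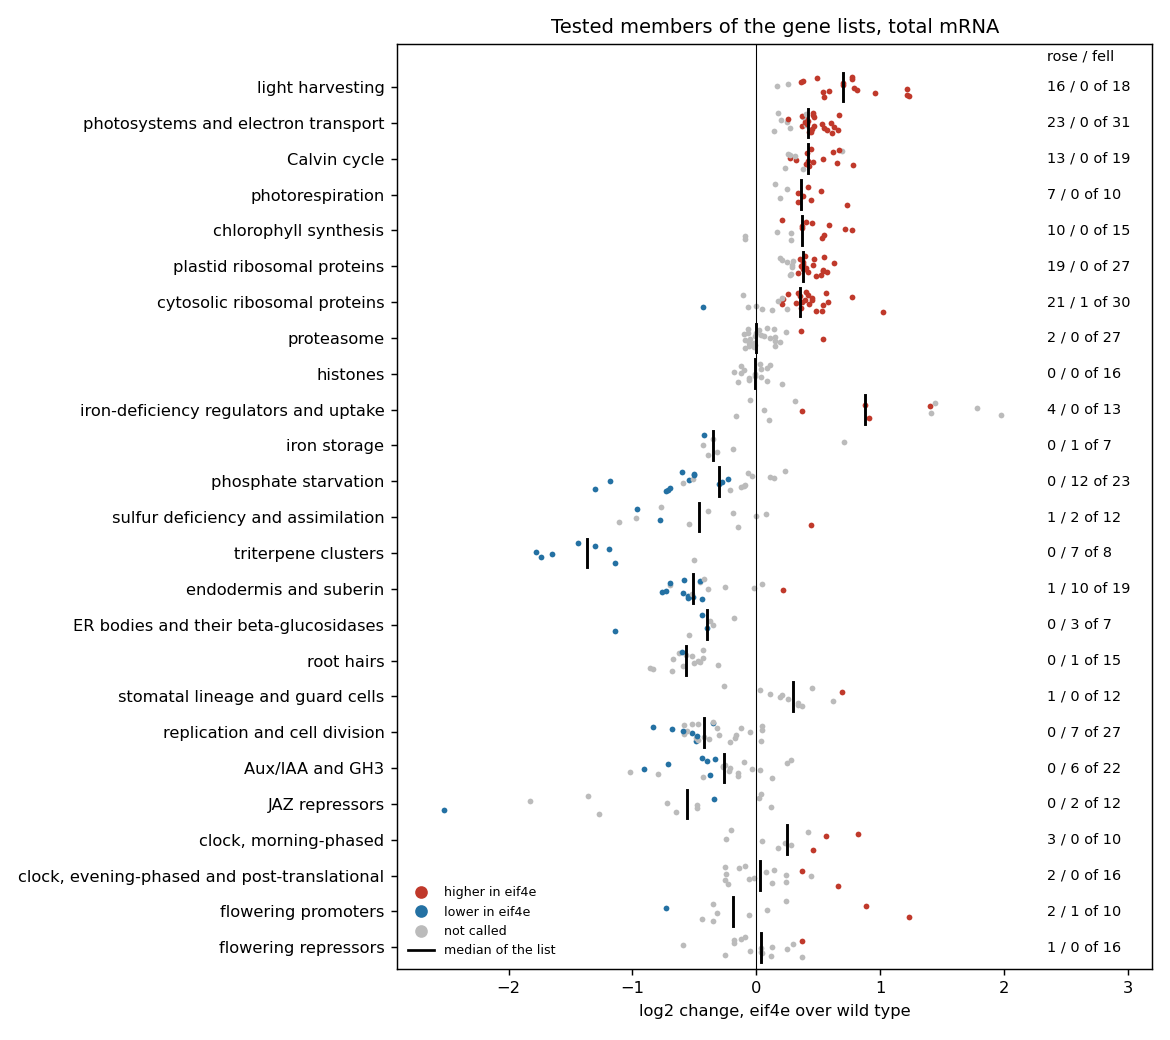
Log2 change of each tested member (points) and the median (black line) of 25 gene lists, with the number that rose and fell at adjusted p below 0.05 written at the right; the horizontal axis is the log2 change of eif4e over wild type. Photosynthetic and ribosomal lists lie to the right of 0, triterpene, phosphate, endodermis and root hair lists to the left, and proteasome and histone lists on 0.

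Iron-deficiency genes stood higher in eif4e and a ferritin gene lower. Plants short of iron induce bHLH transcription factors of subgroup Ib, nicotianamine synthases and transporters, and lower ferritin, which stores iron in plastids. Of 13 tested members 4 rose, beside 9.57% of all genes, and 8 rose under the block. Their median was 0.88, and 0.39 without eif4e library 2, where 6 rose. OPT3, an iron transporter of the phloem, had 67.1, 55.2 and 67.8 FPKM in eif4e and 35.8, 35.9 and 40.9 FPKM in wild type (log2 change 0.88 ± 0.10, edgeR adjusted p = 0.00415). Of the 4 higher calls, only that of OPT3 stood without each single library. BHLH39 had 2.18, 1.07 and 2.36 FPKM in eif4e and 0.692, 0.695 and 0.924 FPKM in wild type (1.4 ± 0.34, adjusted p = 0.0369, up to 0.127 without 1 library), so that eif4e library 2 lay nearest to wild type. Library 2 was also the lowest eif4e library for BHLH100, with 3.13, 0.727 and 2.49 FPKM in eif4e and 0.404, 0.347 and 1 FPKM in wild type, and for BHLH38, with 1.69, 0.372 and 2.82 FPKM in eif4e and 0.197, 0.395 and 0.949 FPKM in wild type. Those genes overlapped between genotypes and were not called without the block (log2 changes 1.98 and 1.78, adjusted p = 0.0678 and 0.145), and were called with it (adjusted p = 0.0124 and 0.0286). Other regulators of the iron response were not called: FRU, also called FIT, was at -0.16 and PYE at 0.06. F6'H1, an enzyme of coumarin synthesis, had 98.9 FPKM in eif4e library 2 against 11 and 31.5 FPKM in the other eif4e libraries and 16.4 to 23.2 FPKM in wild type, and was not called. FER1, the most abundant ferritin gene, fell to 192, 202 and 193 FPKM in eif4e, against 288, 286 and 280 FPKM in wild type (log2 change -0.42 ± 0.05, edgeR adjusted p = 0.0063). It was the 1 call among 7 tested iron storage genes, whose log2 changes ran from -0.43 to 0.71. Under the block 3 of the 7 fell, beside 14.5% of all genes.

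Phosphate-starvation genes fell as a group. These genes, induced by the factor PHR1 when phosphate is scarce, release phosphate from lipids, nucleic acids and organic phosphates and replace phospholipids in membranes. Of 23 tested members 12 were lower, beside 6.59% of all genes, with a median of -0.30 that was -0.31, -0.33 and -0.30 in replicate pairs 1, 2 and 3; 15 were lower under the block. NPC4, a phospholipase C, held 6.49, 5.96 and 4.89 FPKM in eif4e and 13.6, 15.5 and 13.7 FPKM in wild type (log2 change -1.18 ± 0.12, edgeR adjusted p = 0.00365). RNS1, a secreted ribonuclease, held 4.52, 4.06 and 3.34 FPKM in eif4e and 9.49, 12.8 and 9.65 FPKM in wild type (-1.30 ± 0.18, adjusted p = 0.00683). The FPKM groups did not overlap in either gene, as on the low side for 34.7% of all genes tested. Both calls stood without each library. The phosphatase gene PEPC1 fell to 34.9, 28.3 and 24.4 FPKM in eif4e, against 55.8, 52.1 and 49.9 FPKM in wild type (-0.73 ± 0.13, adjusted p = 0.0163; 0.0745 at most without 1 library). The galactolipid synthases MGD2 and MGD3 changed by -0.60 and -0.70, the sulfolipid synthase SQD2 by -0.50 and the noncoding RNA gene AT4 by -0.50, all called. Without wild-type library 1 none of these 4 was called, and over single libraries their adjusted p reached 0.0662 (MGD2), 0.108 (MGD3), 0.11 (SQD2) and 0.0731 (AT4). PHR1 itself, at 24.3, 27.2 and 23.8 FPKM in eif4e and 27.3, 22.7 and 25.9 FPKM in wild type, and SPX1, a phosphate sensor, at -0.07, were not called, and neither was the uptake transporter PHT1;1.

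Purple acid phosphatases, metal-containing enzymes that cleave organic phosphate, supplied 4 of the 12 largest decreases among genes with a symbol whose call stood without each single library. The family was examined after those values were seen, so its counts are a description. RefSeq names 27 such genes, of which 21 passed the level filter: 9 fell and 1 rose, and 18 had a log2 change below 0, with a median of -0.28. PAP14 had 6.15, 4.42 and 3.62 FPKM in eif4e and 14.8, 16.7 and 13.5 FPKM in wild type, and PAP7 had 5.96, 5.36 and 6.15 FPKM in eif4e and 12.3, 11.3 and 11.9 FPKM in wild type. PAP14 changed by -1.54, and others at lower levels fell by similar amounts: PAP5 by 1.61, PAP25 by 1.46, PAP24 by 1.37, PAP22 by 1.23 and PAP20 by 1.07. PAP12, the most abundant of the family's fallen members after PAP17, had 112, 96.1 and 101 FPKM in eif4e and 144, 143 and 142 FPKM in wild type. PAP26, a phosphatase of the vacuole, went the other way, with 113, 111 and 118 FPKM in eif4e and 106, 103 and 110 FPKM in wild type (log2 change 0.22 ± 0.05, edgeR adjusted p = 0.0385). The calls of PAP5, PAP7, PAP14, PAP22 and PAP25 stood without each of 6 libraries, that of PAP24 without 5, PAP12 without 2, PAP20 and PAP26 without 1 and PAP17 without 0 of them.

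**Figure D4:**
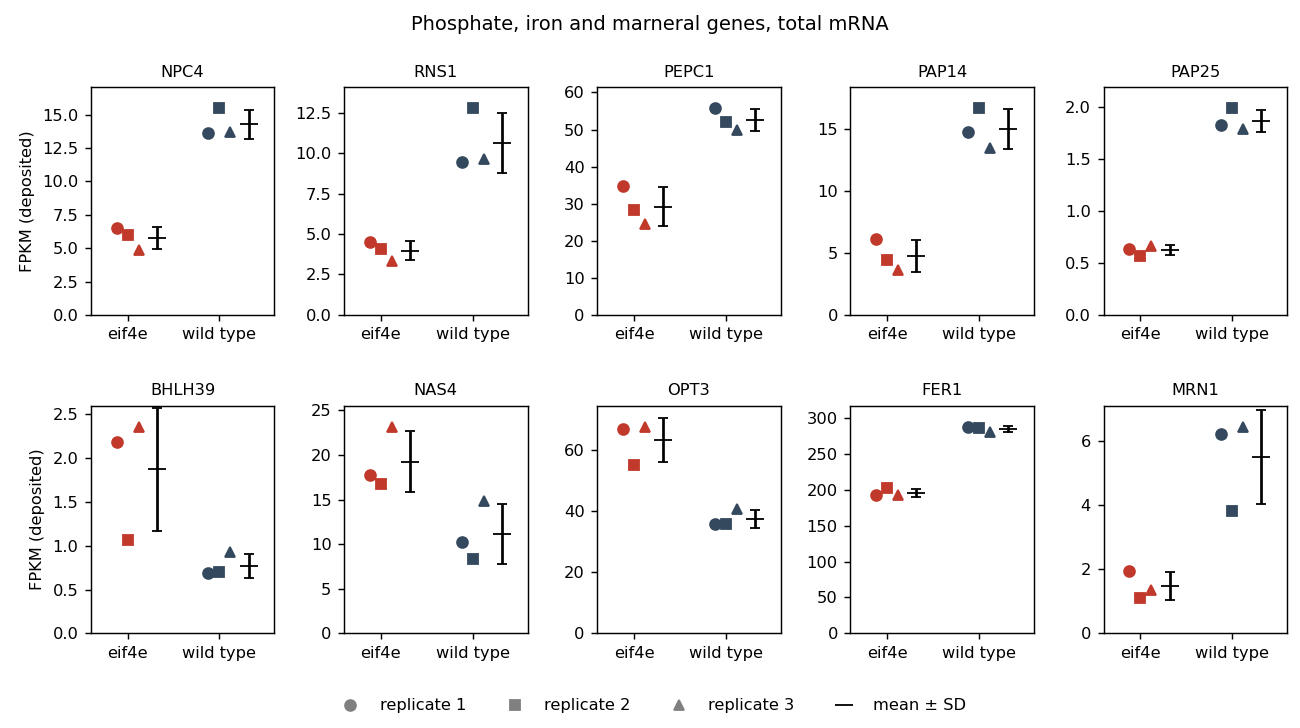
Deposited FPKM (vertical axes, each from 0) of phosphate-related genes (NPC4, RNS1, PEPC1, PAP14, PAP25), iron-related genes (BHLH39, NAS4, OPT3, FER1) and the marneral synthase gene MRN1 in each library, eif4e left of wild type; symbols give the replicate number and bars the mean ± SD over 3 libraries. In all panels the groups do not overlap, as for 34.7% of all tested genes on the low side and 10.4% on the high side. For BHLH39, eif4e library 2, at 1.07 FPKM, lies nearest to wild type.

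Sulfur-deficiency genes had a median of -0.46, with 2 of 12 lower and 1 higher; under the block 6 were lower and 1 higher. LSU1, named for its response to low sulfur, fell to 35.2, 34.0 and 26.0 FPKM in eif4e, against 61.2, 60.9 and 56.0 FPKM in wild type, and GGCT2;1, which breaks down glutathione, to 11.7, 9.04 and 6.98 FPKM in eif4e, against 21.1, 20.5 and 17.0 FPKM in wild type. APR2, the reductase of sulfate assimilation, rose to 148, 137 and 126 FPKM in eif4e, against 110, 110 and 109 FPKM in wild type. The edgeR adjusted p values were 0.0106, 0.0226 and 0.0122, and each exceeded 0.05 when wild-type library 1 was left out, at most 0.0914 over single libraries. Among nitrogen genes 1 of 20 rose, the ammonium transporter gene AMT1;2 by 0.47, and 2 fell. Under the block 5 rose and 3 fell, beside 14.8% of all genes higher and 14.5% lower.

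Triterpene cluster genes had the lowest median of the 53 lists. Marneral and thalianol are triterpenes made in roots from gene clusters in which the enzymes of a pathway lie side by side. Of 8 tested members 7 fell, and 8 under the block, with a median of -1.37 and of -1.14 without eif4e library 2. In the marneral cluster, MRN1, the synthase, held 1.95, 1.09 and 1.36 FPKM in eif4e and 6.22, 3.82 and 6.44 FPKM in wild type. Its neighbour CYP71A16 held 3.74, 2.01 and 4.35 FPKM in eif4e and 11.7, 10.7 and 12.3 FPKM in wild type (log2 change -1.65 ± 0.24, edgeR adjusted p = 0.00872), and CYP705A12 changed by -1.74 ± 0.25 (adjusted p = 0.00846). The thalianol synthase THAS1 had 23.5, 11.1 and 19.2 FPKM in eif4e and 57.4, 43.4 and 58.6 FPKM in wild type, and THAH, the thalianol hydroxylase, 26.4, 15.9 and 21.8 FPKM in eif4e and 60.2, 46.0 and 65.3 FPKM in wild type. Without wild-type library 1 the calls of MRN1, THAS1 and THAH were lost, with adjusted p of at most 0.0509, 0.0718 and 0.0533. In each of these genes library 2 was the lowest of its own genotype. No eif4e library reached a wild-type one, as was so for 34.7% of all genes tested.

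Other root-expressed lists were also low. For the endodermis, the inner root layer sealed by the Casparian strip and suberin, 10 of 19 members fell and 1 rose. CASP1, a scaffold of the Casparian strip, held 17.0, 18.4 and 19.5 FPKM in eif4e and 27.7, 28.1 and 31.7 FPKM in wild type (log2 change -0.55 ± 0.08, edgeR adjusted p = 0.00867), and FAR5, a reductase of suberin alcohols, 6.60, 7.54 and 7.11 FPKM in eif4e and 11, 13.5 and 13.6 FPKM in wild type (-0.73 ± 0.11, adjusted p = 0.00897). Their calls stood without each library. SHR, a regulator of the layer's identity, was at -0.02 and not called. SCR, its partner, with 21.6, 20.8 and 20.9 FPKM in eif4e and 21.0, 18.8 and 19.3 FPKM in wild type, was called higher by 0.22 (adjusted p = 0.0447), a call lost without any single library (up to 0.12) and with scaling by total (0.194). Of 7 genes for ER bodies, compartments holding beta-glucosidases against herbivores, 3 fell, and 6 under the block; BGLU22 was at 14.2, 11.4 and 17.5 FPKM in eif4e and 36.3, 29.4 and 38.0 FPKM in wild type (-1.14 ± 0.16, adjusted p = 0.00784).

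Root hair genes differed chiefly in 1 library. They encode cell wall proteins and regulators of these tubular outgrowths, and their summed level was 189, 65.6 and 181 FPKM in eif4e libraries 1, 2 and 3, against 224, 229 and 250 FPKM in wild type. All 15 tested members had a log2 change below 0, with a median of -0.57, but 1 was called, and 2 under the block. Within pairs the median was -0.17, -1.70 and -0.36, and without eif4e library 2 it was -0.23. PRP3, a structural wall protein, shows the pattern, with 32.7, 9.06 and 31.4 FPKM in eif4e and 36.6, 36.2 and 38.1 FPKM in wild type (log2 change -0.47, adjusted p = 0.444). RHD2, the NADPH oxidase of growing hairs, was called, at 3.13, 3.42 and 3.23 FPKM in eif4e and 5.27, 6.40 and 4.42 FPKM in wild type (-0.60 ± 0.15, adjusted p = 0.0376, up to 0.116 without 1 library), and in it eif4e library 2 was not low. Root-expressed lists and the light-harvesting genes of green tissue moved in opposite directions between the genotypes, with 10 of 19 endodermis genes lower and 16 of 18 light-harvesting genes higher. The share of root in the seedlings was not measured, and its part in the other results was not tested.

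Among replication and division genes 7 of 27 fell, beside 6.59% of all genes, and 14 under the block, with a median of -0.42, or -0.25 without eif4e library 2. CDKB1;1, a kinase of the entry into mitosis, had 3.88, 3.80 and 4.80 FPKM in eif4e and 7.57, 6.70 and 7.55 FPKM in wild type (log2 change -0.68 ± 0.12, edgeR adjusted p = 0.0145; 0.0725 without wild-type library 1). CDC20.1, an activator of mitotic exit, had 8.46, 5.34 and 9.57 FPKM in eif4e and 15.4, 14.4 and 15.6 FPKM in wild type, a call lost without any 1 of 4 libraries (adjusted p up to 0.109). The G1 cyclin genes did not follow: CYCD3;1 was at 0.05, and CYCD3;2, at 31.4, 33.2 and 42.5 FPKM in eif4e and 18.2, 18.2 and 17.7 FPKM in wild type, rose by 1.11 ± 0.11 (adjusted p = 0.00353). None of the 16 histone genes was called by edgeR or DESeq2, and 0 had an unadjusted p below 0.05.

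Aux/IAA and GH3 genes were lower where called without the block. Genes for Aux/IAA repressors and GH3 enzymes, which conjugate auxin, are induced by the hormone. Of 22 tested members 6 fell, beside 6.59% of all genes, with a median of -0.26. Under the block 13 fell and 1 rose, beside 14.5% of all genes lower and 14.8% higher. GH3.5 had 17.3, 18.9 and 20.3 FPKM in eif4e and 33.1, 33.8 and 33.7 FPKM in wild type (log2 change -0.71 ± 0.07, edgeR adjusted p = 0.00243), a call that stood without each library. IAA19 had 6.46, 4.31 and 5.10 FPKM in eif4e and 11.5, 11.9 and 9.19 FPKM in wild type, a change of -0.91 (adjusted p = 0.0201; up to 0.085 without 1 library). SAUR genes, another auxin-induced family, had 2 of 56 higher and 1 lower, or 5 higher and 3 lower under the block. The cytokinin response regulator ARR16 rose to 5.20, 5.30 and 4.02 FPKM in eif4e, against 2.52, 2.04 and 2.84 FPKM in wild type (1.09 ± 0.19, adjusted p = 0.0157; 0.0717 without wild-type library 1), the single call among 8 type-A regulators; 2 rose and 1 fell under the block, and 3 rose without eif4e library 2. EPFL9, the stomagen peptide that promotes stomata, rose to 45.5, 36.2 and 47.5 FPKM in eif4e, against 28.9, 24.4 and 33.9 FPKM in wild type (0.69, adjusted p = 0.0255, up to 0.0979 without 1 library), and was the 1 call among 12 stomatal genes, of which 2 rose under the block and 5 without eif4e library 2.

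Jasmonate genes showed how the replicate numbers bear on calls. JAZ proteins repress jasmonate responses and their genes are induced within minutes of wounding. JAZ8 had 4.49, 4.71 and 1.81 FPKM in eif4e and 27.7, 30.9 and 9.43 FPKM in wild type, and JAZ7 had 10.5, 12.4 and 3.73 FPKM in eif4e and 38.8, 50.8 and 12.7 FPKM in wild type. Library 3 was the lowest in both genotypes, so the spread within a group was wide while each pair showed a similar ratio. Of 12 JAZ genes, 2 fell without the block and 8 with it. JAZ8 changed by -2.52 ± 0.54 (edgeR adjusted p = 0.0258, up to 0.0932 without 1 library) and by -2.48 (adjusted p = 6.3e-04) with the block, and JAZ7 by -1.83 (adjusted p = 0.0772) and by -1.8 (adjusted p = 6.3e-04) with it. The wound- and pathogen-induced factors WRKY40 and WRKY18 followed the same pattern: WRKY40 had 123, 191 and 85.1 FPKM in eif4e and 304, 366 and 167 FPKM in wild type (adjusted p = 0.119, 7.8e-04 with the block). Of the 16 genes of jasmonate synthesis, turnover and response, 3 rose and 2 fell, and under the block 3 rose and 8 fell. LOX2, the plastid lipoxygenase at the start of the pathway, rose to 270, 270 and 249 FPKM in eif4e, against 193, 168 and 187 FPKM in wild type (0.65 ± 0.07, adjusted p = 0.00444), a call that stood without each library, whereas CYP94B3, which inactivates the hormone, fell by 1.66 (adjusted p = 0.0479; up to 0.14 without 1 library).

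**Figure D5:**
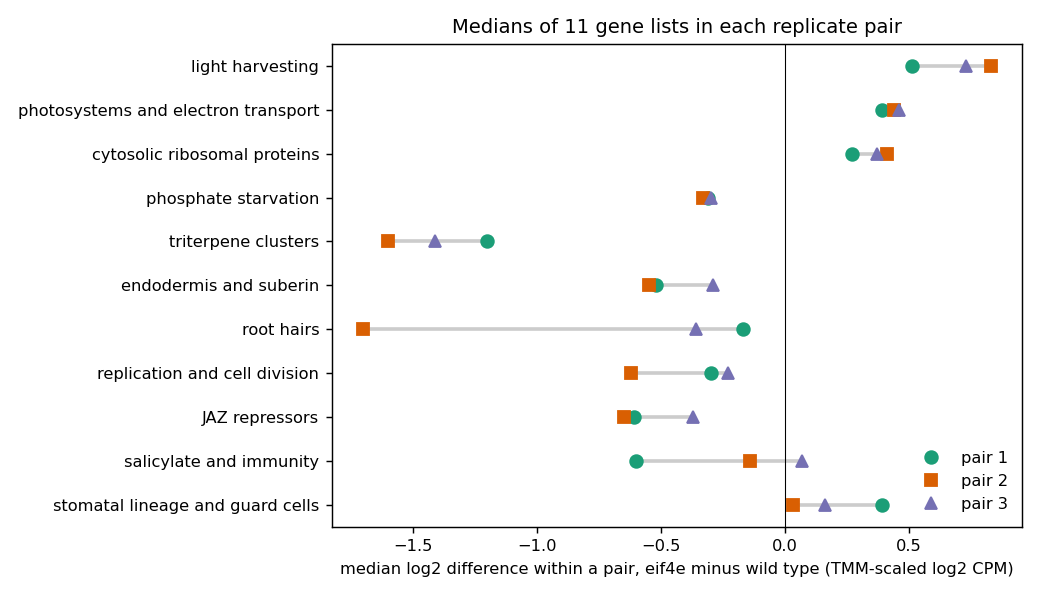
Median log2 difference within each replicate pair, eif4e minus wild type in TMM-scaled log2 CPM (horizontal axis), for 11 gene lists; symbols give the pair number and grey bars span the 3 pairs. Root hairs range from -1.70 in pair 2 to -0.17 in pair 1, and the phosphate list stays between -0.33 and -0.30.

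Salicylate and defence markers were mixed. PR2, a beta-glucanase, rose to 10.8, 16.9 and 11 FPKM in eif4e, against 6.29, 5.45 and 6.65 FPKM in wild type (log2 change 1.19 ± 0.19, edgeR adjusted p = 0.0114; 0.0581 without wild-type library 1), the single call among 19 salicylate and immunity genes, whose median was -0.32. Under the block 4 of them rose and 6 fell. PR1 stood at 76.2, 143 and 74.8 FPKM in eif4e and 55.8, 18.0 and 37.4 FPKM in wild type (1.53, adjusted p = 0.053, 0.0357 with the block). The lipid transfer protein gene LTP1 rose to 1970, 2000 and 2070 FPKM in eif4e, against 1530, 1330 and 1640 FPKM in wild type, while LTP4, an abscisic-acid-responsive relative, fell to 10.3, 26.6 and 19.7 FPKM in eif4e, against 49.5, 109 and 61.7 FPKM in wild type. Both calls were lost without wild-type library 1, with adjusted p of at most 0.0568 for LTP1 and 0.0884 for LTP4. In the cold and drought list 3 of 30 fell, beside 6.59% of all genes, and 9 under the block, beside 14.5%. The factor gene DDF1 had 9.81, 11.8 and 6.78 FPKM in eif4e and 38.5, 45.4 and 18.2 FPKM in wild type (-1.73 ± 0.37, edgeR adjusted p = 0.0255, up to 0.0935 without 1 library).

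Clock and flowering genes, which the series title names, were measured at 1 time of day only. Of 10 morning-phased clock genes 3 rose: RVE1 by 0.82 (adjusted p = 0.048), RVE4 by 0.56 (0.0188) and LHY by 0.46 (0.0288), each losing its call without at least 3 of the single libraries, with an adjusted p of up to 0.154. LHY stood at 4.47, 3.65 and 4.1 FPKM in eif4e and 3.27, 2.98 and 3.44 FPKM in wild type, while CCA1, its partner, had overlapping groups (0.28, adjusted p = 0.181). With scaling by total RVE1 and LHY lost their calls (adjusted p = 0.059 and 0.0542). The other clock list held 16 tested genes, among them evening-phased and post-translational ones and also LWD1. In that list LWD1 rose by 0.66 ± 0.08 (edgeR adjusted p = 0.00539), with 22.8, 22.8 and 24.3 FPKM in eif4e and 17.8, 14.5 and 16.1 FPKM in wild type. PRR5 rose by 0.37 (edgeR adjusted p up to 0.0953 without 1 library). TOC1 and GI were not called, at -0.09 and -0.23. Under the block 4 of these 16 rose and 3 fell, beside 14.8% of all genes higher and 14.5% lower.

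Among flowering promoters 2 of 10 rose and 1 fell, beside 9.57% of all genes higher and 6.59% lower. CIB1, a factor that acts with the blue-light receptor, rose to 19.1, 21.1 and 16.9 FPKM in eif4e, against 12, 9.45 and 11.9 FPKM in wild type (log2 change 0.89 ± 0.12, edgeR adjusted p = 0.00669), a call that stood without each library. SPL3, a factor of the age pathway, rose to 6.13, 4.73 and 5.64 FPKM in eif4e, against 3.06, 1.75 and 2.82 FPKM in wild type (1.23 ± 0.22, adjusted p = 0.0159, up to 0.0555 without 1 library). The MADS-box gene AGL24 fell to 3.59, 2.58 and 2.58 FPKM in eif4e, against 5.58, 4.79 and 5.42 FPKM in wild type (-0.73 ± 0.17, adjusted p = 0.0318, up to 0.117 without 1 library). FT, the mobile flowering signal, had 2.32, 1.65 and 1.82 FPKM in eif4e and 3.52, 2.53 and 2.53 FPKM in wild type, a change of -0.44 that missed the threshold (adjusted p = 0.201). The repressor FLC, at 1.45, 1.65 and 1.82 FPKM in eif4e and 2.99, 3.00 and 2.07 FPKM in wild type, also missed it (-0.59, adjusted p = 0.0955), and of 16 repressors CDF1 alone was called, higher by 0.37, a call lost with scaling by total (adjusted p = 0.0904) and with the length correction (0.0515). Under the block 2 repressors rose and 1 fell, beside 14.8% of all genes higher and 14.5% lower.

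The largest changes with a symbol that stood without each library were on the high side LHCB1.5, NDA1, LHCB1.1, RCY1, CYCD3;2, ZEU1, TCTP, BZIP9, UBC8, Fes1C, RABA5E and NAP1;1, from 1.22 down to 1.02. NDA1, an alternative NADH dehydrogenase of mitochondria, had 14.8, 14.2 and 14.9 FPKM in eif4e and 7.18, 5.62 and 7.67 FPKM in wild type (log2 change 1.22 ± 0.11, edgeR adjusted p = 0.00239). TCTP, the translationally controlled tumor protein, was the most abundant of them, with 3050, 3680 and 3360 FPKM in eif4e and 1810, 1630 and 1810 FPKM in wild type (1.06 ± 0.09, adjusted p = 0.00206). RCY1, a cyclin L, and NAP1;1, a histone chaperone, were among the tightest, with 40.6, 48.9 and 50.3 FPKM for RCY1 in eif4e and 22.6, 23.5 and 22.6 FPKM in wild type. On the low side the 12 genes were IDL1, CYP705A12, CYP71A16, PAP5, TBL24, MC7, PAP14, PAP25, LBD26, RNS1, PAP22 and NPC4, from -1.98 to -1.18. IDL1, a gene for a small secreted peptide of the IDA family, had 1.12, 1.59 and 1.09 FPKM in eif4e and 6.22, 5.15 and 4.86 FPKM in wild type (-1.98 ± 0.22, adjusted p = 0.00415). TBL24, of the family that acetylates cell wall polysaccharides, had 4.68, 5.21 and 5.20 FPKM in eif4e and 16.3, 15.4 and 17.2 FPKM in wild type (-1.57 ± 0.08, adjusted p = 0.00118).

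Some genes without a symbol gave still larger differences, and AT2G01422 and AT4G08093 were nearly on or off by genotype. The genes here were picked after their values were seen and are named by identifier. AT2G01422, a noncoding RNA gene, had 712, 710 and 782 counts in eif4e and 3, 7 and 5 in wild type, or 44.5, 50.5 and 47.7 FPKM in eif4e and 0.169, 0.397 and 0.272 FPKM in wild type. Per listed count it was 172-fold higher in eif4e (exact 95% counting interval 104 to 308; edgeR adjusted p = 2.1e-05). The tested gene before it in identifier order, PIN4, did not pass (log2 change -0.02), and the one after it, HB17, was lower, with 3.72, 4.71 and 4.69 FPKM in eif4e and 8.94, 8.16 and 8.93 FPKM in wild type (-0.87 ± 0.12, adjusted p = 0.00797, a call that stood without 5 of the 6 libraries in turn). In the opposite direction AT4G08093, a transcribed pseudogene, had 1, 3 and 2 counts in eif4e and 83, 84 and 102 in wild type; wild type over eif4e gave a ratio of 38.2 (interval 17.3 to 105). The pseudogene AT5G35935 had 36, 34 and 37 counts in eif4e and 532, 504 and 617 in wild type, and the pseudogene AT1G43590 had 10, 13 and 12 counts in eif4e and 143, 129 and 192 in wild type (log2 changes -3.61 and -3.38, adjusted p = 3.7e-05 and 0.00181). AT5G60470 and its neighbour AT5G60460 moved apart: AT5G60470 had 5, 9 and 9 counts in eif4e and 75, 70 and 53 in wild type, while AT5G60460 had 148, 198 and 187 counts in eif4e and 57, 68 and 79 in wild type. At all these genes eif4e library 2 lay with the other eif4e libraries, unlike at EIF4E1. The kit was stranded per the labels, but whether strand was used in counting is not given, so reads of overlapping or antisense transcripts cannot be told apart.

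A stretch of chromosome 2 identifiers also stood out after the values were seen. Chromosome 2 of Arabidopsis carries a large insertion of mitochondrial DNA, and the deposited tables list 0 organelle-encoded genes. Of 30 tested genes from AT2G07667 to AT2G07826 in identifier order, 9 rose and 1 fell, beside 9.57% of all genes higher and 6.59% lower. Of the 30, 25 had a log2 change above 0, and the median was 0.68. That median includes genes with few counts, such as the tRNA gene AT2G07763, with 1, 2 and 3 counts in eif4e and 1, 2 and 1 in wild type. AT2G07671 had 15.3, 27.3 and 22.5 FPKM in eif4e and 6.10, 6.82 and 7.32 FPKM in wild type (1.8 ± 0.22, edgeR adjusted p = 0.00541), and AT2G07811, a transcribed pseudogene, 3.96, 8.24 and 6.66 FPKM in eif4e and 1.24, 1.73 and 1.06 FPKM in wild type. Among the 9 higher calls, only those of AT2G07671 and AT2G07811 stood without each single library. Reads of near-identical organelle copies could be counted here, which makes these values uncertain.

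The remaining lists had few calls without the block. Genes often used as references had a median of 0.08, or -0.02 with scaling by total. Of 10 such genes 2 were called higher, beside 9.57% of all genes, and 3 under the block. ACT8 was among them, at 245, 286 and 277 FPKM in eif4e and 202, 188 and 212 FPKM in wild type (log2 change 0.54 ± 0.08, edgeR adjusted p = 0.00774, and 0.0503 without wild-type library 1). Starch genes had 1 of 26 higher and 1 lower, glutathione transferases 1 of 40 higher and 1 lower, and sugar-starvation genes 1 of 15 lower. Under the block, where 14.8% of all genes were higher and 14.5% lower, starch genes had 2 higher and 4 lower, glutathione transferases 4 and 10, sugar-starvation genes 1 and 4, and flavonoid genes 1 and 7 of 16. Heat shock genes (8 tested) and ER folding genes (7 tested) had 0 calls by edgeR and by DESeq2, and 0 at an unadjusted p below 0.05, while 1 heat shock gene was lower under the block; flavonoid genes had 0 of 16 by edgeR, 4 at an unadjusted p below 0.05 and 1 by DESeq2. By biotype, 14 of 95 tested ncRNA genes fell and 1 rose, and of 50 miRNA genes 3 fell.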

How the data were processed

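Total mRNA of whole seedlings was sequenced with a stranded poly(A) kit, per the labels' protocols. The authors deposited, for each library, a count of reads per gene and an FPKM value scaled to the read total. Reads were aligned with TopHat2 2.0.11 to TAIR10, per the submitters' processing notes; the counting program and its strand setting are not given in the sources used here. A gene absent from a library's table was taken as 0, which touched 2046 of 25248 genes with at most 48 counts. RefSeq names matched 25133 identifiers.

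Genes with a mean of at least 1 FPKM over the 6 libraries were tested on counts with edgeR 4.0.16 (R 4.3.3; quasi-likelihood test, TMM scaling, Benjamini-Hochberg adjusted p below 0.05 over 19262 genes) without a block; DESeq2 1.42.0 and other settings were alternatives, and the fit was tested on simulated data. The block takes same-numbered libraries as pairs. Deviations from the group means correlated at 0.25, 0.536 and 0.457 in pairs 1, 2 and 3. Other combinations reached at most 0.275, for eif4e 1 with wild type 3, which is above the value of pair 1. Same-numbered libraries were thus each other's best match in pairs 2 and 3 but not in pair 1. Counting intervals cover counting error only.

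Members and gene lists were chosen with earlier results of these data known, and lists are described by counts and medians beside all genes. Named genes are EIF4E1 with 4 relatives, 12 genes at each end of the log2 changes (with a symbol, FPKM groups that do not overlap and a call standing without each library), the 6 most abundant called genes each way, and up to 3 called members each way per list. Other genes named in the text were chosen after their values were seen. Promoter sequences were not used here.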

Additional observations from a re-analysis of the deposited data

How the results depend on the processing

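Of 153 named-gene results, the 137 called kept their sign under every alternative run. Of the 16 not called, 7 took the other sign under at least 1: EIFISO4E, at 0.01, was at -0.09 with scaling by library size alone, and EIF4E3, at -0.03, at 0.07 without eif4e library 3. With the replicate block 2855 genes were higher and 2801 lower, and with length correction and block 3377 and 2243; scaling by library size alone gave 1044 and 3048. Leaving out each library in turn gave 457 to 2063 higher and 157 to 1002 lower, and an EIF4E1 change of -2.29 to -1.34, which missed the threshold when any single library other than eif4e 2 was left out. Wild-type library 1 was the one whose absence ended most named calls, 91 of 137, against 18 for eif4e 2. Among the named genes the replicate block added the calls of CHS (0.33, adjusted p = 0.0312) and PP2-A1 (0.24, adjusted p = 0.0344), both not called without it; beside these and the results given in the report, it changed no other named call. DESeq2 called 1853 higher and 1290 lower. With a filter of 5 FPKM the flower and pollen list had no member left. The cause of these changes was not tested.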
